A study of Rattus norvegicus with 11 samples.

Results

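Of 95472 rat retinal transcripts, 40 were read in every library of one genotype and nearly absent from every library of the other. They were chosen on counts-per-million (CPM), each library's estimated reads per transcript divided by that library's sum. A transcript was P23H-only when all 9 P23H libraries held at least 2 CPM and both wild-type libraries held under 0.2 CPM, and WT-only when the reverse held. There were 38 P23H-only transcripts and 2 WT-only transcripts, so the limit of 150 per direction was not reached. The 38 made up 0.192% of the 19773 transcripts with at least 2 CPM in all 9 P23H libraries, and the 2 made up 0.00894% of the 22359 transcripts with at least 2 CPM in both wild-type libraries. The rule asks for silence in 2 libraries in one direction and in 9 libraries in the other, so these counts cannot be compared as they stand. The same genotype contrast chose the members, and every P23H against wild-type value below is therefore a description without a test.

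The study asked whether halofantrine, an antimalarial drug, alters the retina of P23H rats, a model of autosomal dominant retinitis pigmentosa. All 11 retinas came from female rats, with 1 library per animal by the sample names. The 5 P23H DMSO and 4 P23H halofantrine animals were labelled P23HxLE, hemizygous offspring of transgenic P23H line 1 rats and Long Evans rats, and had injections of 5 µL into the vitreous of both eyes, which held DMSO or halofantrine. The concentration is labelled as 20 to 100 µM without a value per animal. The 2 wild-type animals were labelled SDxLE and untreated, and they neither carried the transgene nor were injected. Genotype, strain cross and injection thus cannot be told apart between wild type and P23H, nor can whatever the final letter of the sample names stands for, which is L in wild type and R in P23H. Animal numbers of the halofantrine and DMSO groups did not overlap either, so a cohort that followed them cannot be told apart from treatment. The age at RNA collection is not given in the sources used here.

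Most genes give rise to several transcripts, through different start sites, splice patterns and ends, and the retina is known for splice forms that other tissues lack. A transcript can therefore appear or vanish with its whole gene, or by an exchange with other transcripts of a gene whose total stays level. The gene total can also move to a lesser degree, or in the other direction. Rhodopsin, the light-absorbing protein of rods, misfolds when it carries the P23H substitution, and the rods of such animals die progressively. In whole retina, fewer cells of a type and less RNA per cell cannot be told apart. Reads were assigned to transcripts by kallisto, which shares out a read compatible with more than 1 transcript, so the levels of transcripts of 1 gene are estimates that depend on each other. Near-identical copies of a gene can share reads in the same way. The files do not pair identifiers with gene symbols, and no identifier could be matched to a name. Identifiers are printed for the leading members only, marker genes of the retina could not be looked up to check the tissue label, and the products of the member genes cannot be described.

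The P23H-only transcripts are called T1 to T38 in the order of their mean CPM over the 9 P23H libraries, and the WT-only transcripts W1 and W2. CPM is not scaled to transcript length, so this order is one of reads and not of molecules. Transcript totals lay between 11911877 and 34814612 estimated counts per library. At these depths 0.2 CPM amounted to 3.70 and 2.60 reads in the wild-type libraries, and 2 CPM to 23.8 reads in the shallowest P23H library. Silence in wild type thus means no more than a few reads. Of the 38 P23H-only transcripts, 28 had under 0.5 estimated reads over both wild-type libraries together, and the highest sum was 5.81 reads, for T9. Taking 3 counts over the group as the limit of detection, which is 0.0953 CPM for the wild-type pair, the mean P23H level of these 28 was at least 27.4-fold to at least 595-fold higher, with a median bound of 79.2-fold. These bounds cover counting error only. Estimates under 0.0005 CPM are written as 0.

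**Figure D1:**
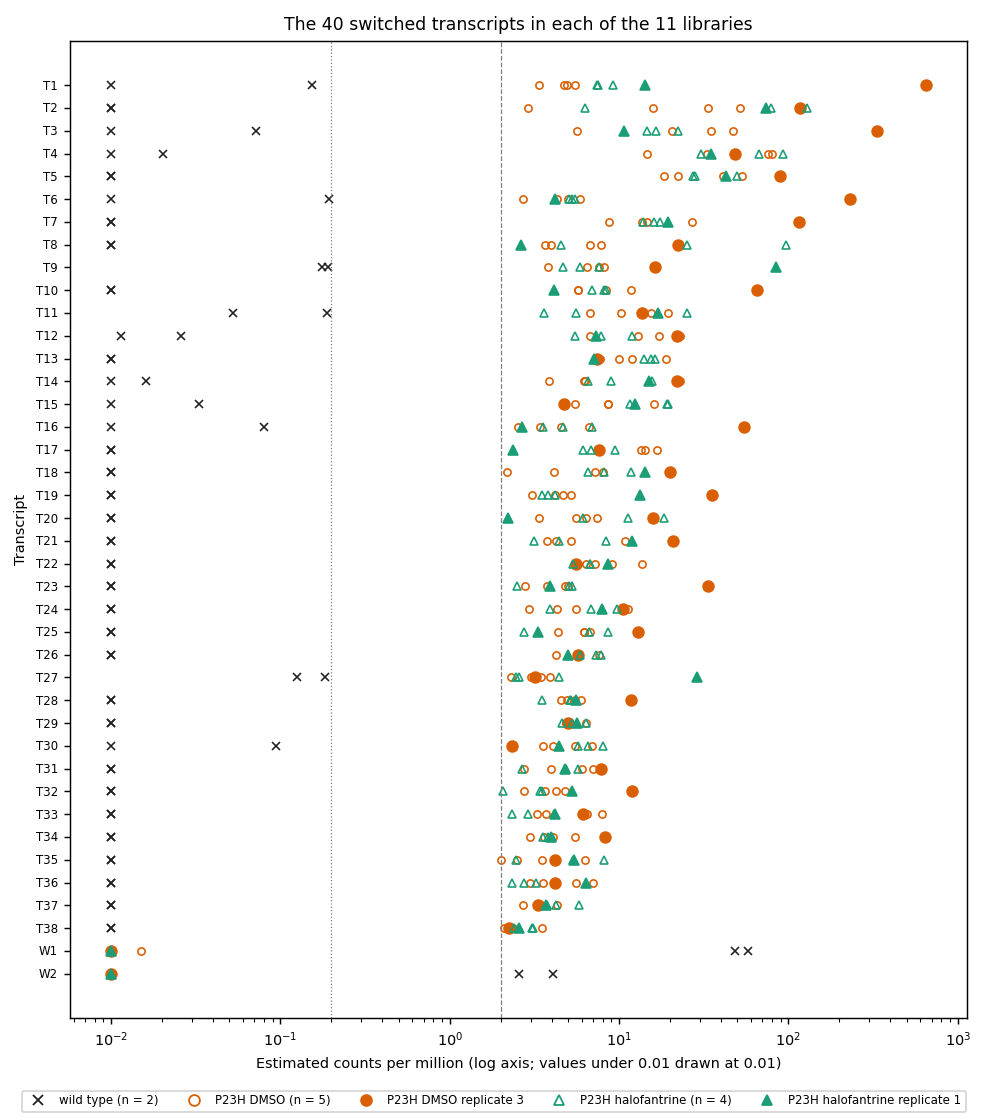
CPM of each member (rows, T1 to T38 and W1 to W2) in each of the 11 libraries, on a log axis, with values under 0.01 drawn at 0.01. Dotted and dashed lines mark 0.2 and 2 CPM. The wild-type crosses of every T transcript lie left of the dotted line, and P23H DMSO replicate 3 (filled circles) is the highest library in 16 of the 38.

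The wild-type side held few members. W1 (ENSRNOT00000043451.8, of gene ENSRNOG00000033280) had 57.9 and 48.4 CPM in the wild-type libraries, and at most 0.0149 CPM in any P23H library. Against the limit of 3 counts over the 9 P23H libraries, 0.0143 CPM, its wild-type mean was at least 3711-fold higher. W2 (ENSRNOT00000120175.2, of gene ENSRNOG00000021149) had 4.06 and 2.57 CPM in wild type and was at 0 in all 9 P23H libraries, where its level was at least 232-fold lower. Both were minor forms, with 32.6% to 38.7% of their gene's reads for W1 in wild type and 8.83% to 12.2% for W2.

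Among the P23H-only transcripts, the levels within P23H differed widely from library to library. T1 (ENSRNOT00000048332.6, the sole transcript assigned to gene ENSRNOG00000032844) was at 0 and 0.154 CPM in wild type, the latter being 2 reads. Its DMSO values were 4.95, 3.35, 650, 5.46 and 4.73 CPM, and its halofantrine values were 14.3, 7.38, 9.22 and 7.54 CPM. Thus a single library, P23H DMSO replicate 3, gave T1 its place at the head of the list, and the other 8 P23H libraries averaged 7.11 ± 3.45 CPM (SD, n = 8). T2 (ENSRNOT00000014788.9, the sole transcript assigned to gene ENSRNOG00000011124) had no read in wild type. It was at 15.8, 2.90, 118, 33.3 and 51.8 CPM with DMSO and at 73.8, 6.29, 129 and 79.3 CPM with halofantrine, a mean at least 595-fold higher than wild type. Its spread was not due to 1 library, since 7 of the 9 libraries were spread between 15.8 and 129 CPM and the lowest 2 lay under 7 CPM. Over all 38, the highest P23H value exceeded the lowest by 1.40-fold to 194-fold with a median of 5.81-fold, where the median over all transcripts at 2 CPM or more in every P23H library was 2.03-fold. That set was not matched to the members in level.

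A few members were steady. T29 was at 4.57 to 6.40 CPM in all 9 P23H libraries and had no wild-type read, with a coefficient of variation of 12.2%. T38, the lowest in mean, was at 2.09 to 3.50 CPM (18.6%). T26 lay between 4.25 and 7.84 CPM (20.0%), and T37 between 2.72 and 5.80 CPM (22.7%). All 4 were at 0 in both wild-type libraries. In 8 of the 38 the highest P23H value was under 3 times the lowest, and in 12 it was over 10 times the lowest.

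One library stood apart in many of the members, though the highest over lowest ratio was not computed without it. P23H DMSO replicate 3 held the highest P23H value of 16 of the 38 transcripts and the lowest of 2. Its value was over 2 times the median of the other 8 P23H libraries in 21 of them, over 5 times in 8, and under 0.5 times in 2 (T15 and T30). Over all transcripts at 2 CPM or more in every P23H library the share over 2 times was 7.33%, and the median of this ratio was 0.899. Summed over the 38 transcripts, replicate 3 had 2050 CPM, the other P23H libraries 255 to 540 CPM, and the wild-type libraries 0.836 and 0.787 CPM. The ratio was 101 for T1, 46.0 for T6, 17.9 for T3, 13.5 for T16, 8.70 for T10, 8.49 for T19, 7.69 for T23 and 7.51 for T7. Leaving a library out loosens the rule, and without replicate 3 it was met by 41 transcripts, the 38 among them. P23H halofantrine replicate 1 was likewise apart for T9, at 84.2 CPM against at most 16.3 CPM elsewhere, and for T27, at 28.8 CPM against at most 4.44 CPM. T8 was highest in halofantrine replicate 4, at 96.6 CPM, where the other P23H libraries lay between 2.64 and 25.2 CPM. What these libraries contain beyond the others was not tested.

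Whether the gene as a whole switched, or the transcript alone, was then examined. The deposited gene table holds 12037 genes, and the transcripts of a gene were recovered as runs of neighbouring transcripts whose counts add up to a gene's count in all 11 libraries within 0.05 counts. The shortest such run was taken, so transcripts without reads at its ends are not counted. Numbers of transcripts per gene are therefore lower bounds. This assigned a gene to 33 of the 40 members, 31 P23H-only transcripts in 30 genes and both WT-only transcripts. The remaining 7 (T9, T27, T29, T31, T32, T36 and T38) have no gene total here. By the ratio of mean gene CPM in P23H to wild type, 11 of the 31 lay in genes within 1.5-fold of wild type, 9 in genes 1.5-fold to 10-fold higher, and 11 in genes over 10-fold higher. These counts are partly set by the rule. A gene with T1, T2, T26 or T28 as its sole assigned transcript must be over 10-fold higher. Any other P23H-only member also raises its own gene's P23H total. The same classes were formed for the 18683 transcripts with at least 2 CPM in every P23H library and a gene total, there in either direction. Their shares were 76.9% within 1.5-fold, 22.5% from 1.5-fold to 10-fold and 0.632% over 10-fold. Shares for genes higher in P23H alone were not computed. Without DMSO replicate 3 the 3 counts were 11, 11 and 9, since the gene of T16 moved from 14.8-fold to 5.25-fold and that of T18 from 11.7-fold to 8.61-fold.

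**Figure D2:**
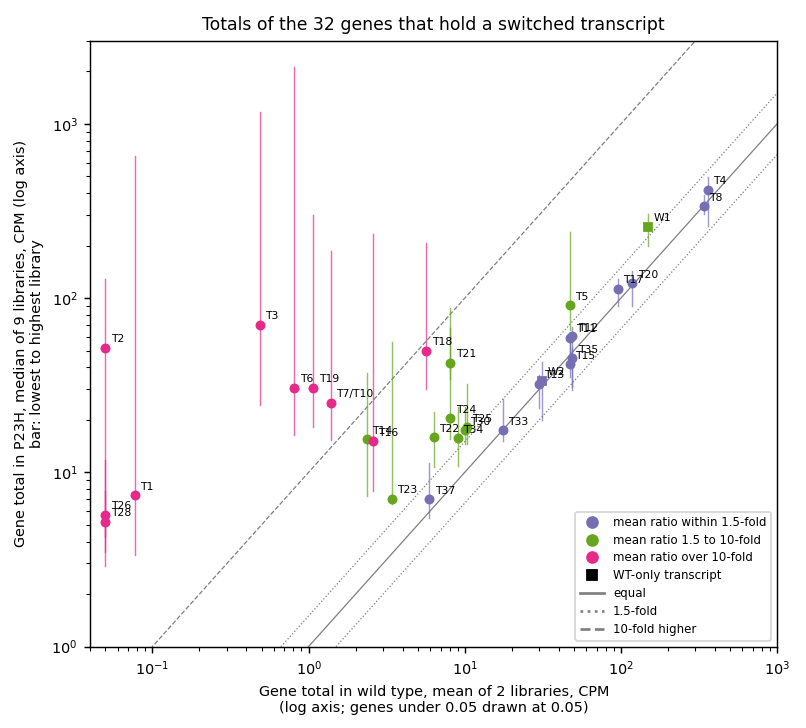
Total CPM of the 32 genes that hold a member, wild-type mean (2 libraries) against P23H median (9 libraries), both on log axes, with bars from the lowest to the highest P23H library and colours for the class of the ratio of means. Genes within 1.5-fold lie along the line of equality at 5.93 CPM or more in wild type, while genes over 10-fold higher have at most 5.66 CPM in wild type and bars that reach up to 2125 CPM, the value of the gene of T6 in P23H DMSO replicate 3.

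The genes over 10-fold higher in P23H had low wild-type totals. The highest were those of the gene of T18, 4.38 and 6.93 CPM (171 reads), which lie above 2 CPM in both libraries, and of the gene of T16, 1.96 and 3.21 CPM (78 reads). Among these 10 genes 4 have a single assigned transcript, T1, T2, T26 or T28, and the last 3 of these had no wild-type read. T26 and T28 gave gene totals of 4.25 to 7.84 CPM and 3.49 to 11.8 CPM in P23H, at least 63.9-fold and at least 60.6-fold higher. In the other 6 genes further transcripts of the gene were read as well. The gene of T3 had 0.432 and 0.539 CPM in wild type (15 reads in all) against 24.3 to 1177 CPM in P23H, 411-fold higher by means and 159-fold without DMSO replicate 3. Its other transcript made up most of it, at 0.360 and 0.539 CPM in wild type and 18.6 to 845 CPM in P23H, while T3 itself was at 23.3% to 31.7% of the gene's reads in every P23H library. The gene of T6 had 0.378 and 1.24 CPM in wild type (23 reads) and 16.4 to 2125 CPM in P23H, a ratio of 323 that fell to 35.8 without DMSO replicate 3.

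T7 and T10 shared a gene. Both were at 0 in wild type, T7 at 8.70 to 116 CPM and T10 at 4.12 to 65.3 CPM in P23H, and the gene total was 1.53 and 1.24 CPM in wild type and 15.4 to 187 CPM in P23H, 31.5-fold higher by means and 18.5-fold without DMSO replicate 3. The pair are not independent members. The gene of T19 was 64.5-fold higher and 37.6-fold higher without that library, with a major form at 1.30 and 0.847 CPM in wild type and at 12.97 to 249 CPM in P23H. The gene of T18 had a major form at 4.38 and 6.34 CPM in wild type and at 26.5 to 178 CPM in P23H. In this class the median ratio of DMSO replicate 3 to the other 8 P23H libraries was 8.49, and it was over 2 in 10 of the 11 transcripts. It was 2.13 in the class from 1.5-fold to 10-fold and 0.951 in the class within 1.5-fold, where it was over 2 in 3 of 11. DMSO replicate 3 is part of the mean that set the classes, so this order is partly built in.

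In the middle class the wild-type reads of the gene were assigned to other transcripts. The gene of T5 had 47.8 and 46.1 CPM in wild type, carried by another transcript at 47.8 and 46.1 CPM, and 65.9 to 238 CPM in P23H, 2.55-fold higher by means. T5 was at 0 in wild type and at 18.3 to 89.4 CPM in P23H, where it took 19.8% to 67.2% of the gene in P23H. The gene of T14 was 7.61-fold higher, with 2.30 and 2.43 CPM in wild type, and T14 took 52.9% to 81.1% of it in P23H. The gene of T21 was 5.66-fold higher, and T21 held 6.69% to 35.2% of it. All 9 genes of this class had P23H totals that lay above both wild-type totals. The class was set by the ratio of these same totals, and the share over all genes was not computed. For single transcripts at 2 CPM or more in every P23H library, 18.3% had all P23H values above both wild-type values. Without DMSO replicate 3 the ratios of this class ran from 1.62-fold for the gene of T34 to 6.60-fold for that of T14. The gene of T23 moved most with that library, from 3.96-fold to 2.40-fold, and the gene of T24 from 3.57-fold to 2.66-fold.

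The 11 genes within 1.5-fold carried transcripts that switched while the gene total did not. Their gene ratios lay between 0.920 and 1.30 with a median of 1.02, and all 11 had P23H and wild-type totals that overlapped. The class itself makes such overlap likely, and the share over all genes was not computed. In wild type their reads were assigned to other transcripts of the same gene. The share of the gene held by the switched transcript in P23H, by medians, ran from 2.01% to 51.2%, with a median of 22.2%. T4 had the highest read count among these. It was at 0.0203 and 0.000828 CPM in wild type and at 14.6 to 92.4 CPM in P23H, which was 2.95% to 20.0% of its gene, and the gene total was 355 and 364 CPM in wild type and 259 to 494 CPM in P23H. T8 took 0.691% to 29.3% of a gene with 329 and 351 CPM in wild type and 306 to 393 CPM in P23H. T12 took 9.13% to 47.1% of its gene, whose total was 46.7 and 51.1 CPM in wild type and 29.7 to 68.6 CPM in P23H. The P23H totals of the genes of T4, T8 and T12 thus ran both below and above the wild-type totals. T15 took 10.8% to 54.8% of its gene, T11 6.96% to 39.6%, T33 13.2% to 47.4% and T17 2.21% to 12.9%.

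In the gene of T13 the estimates of a pair of transcripts differed between genotypes in opposite directions. These estimates depend on each other, and an exchange of molecules was not tested. T13 had 0 CPM in both wild-type libraries and 18.8, 7.67, 7.40, 10.05 and 11.9 CPM with DMSO and 7.09, 16.3, 14.1 and 15.4 CPM with halofantrine. The only other transcript assigned to its gene had 30.2 and 29.5 CPM in wild type and 10.4 to 26.4 CPM in P23H, lower in all 9. The gene total was 30.2 and 29.5 CPM in wild type and 23.4 to 36.0 CPM in P23H, a ratio of means of 1.02. The gene of T37 was assigned 6 transcripts. T37 was at 0 in wild type, at 2.72 to 5.80 CPM in P23H, and held 42.0% to 58.1% of its gene in P23H, while another transcript with 4.23 and 4.00 CPM in wild type was at 0 to 1.77 CPM in P23H, with a median of 0. A further transcript of this gene was higher in all 9 P23H libraries, at 1.34 to 3.32 CPM against 0.674 and 0 CPM in wild type.

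Such opposite movement was not general. Of 36 other transcripts of the P23H-only genes that had at least 2 CPM in both wild-type libraries, 5 were lower in all 9 P23H libraries than in either wild-type library, 2 were higher in all 9, and 29 overlapped. Over all transcripts with at least 2 CPM in both wild-type libraries, 11.1% were lower and 13.4% were higher in that sense. The 5 of 36 that were lower were thus close to the general share and do not set the member genes apart. The 5 belonged to the genes of T13, T20, T25, T35 and T37. The gene of T20 was assigned 10 transcripts. In it a form at 25 and 24.5 CPM in wild type was at 1.33 to 22.6 CPM in P23H, while T20 was at 0 in wild type and at 2.21 to 18.4 CPM in P23H. In the gene of T35 a form at 10.8 and 9.71 CPM was at 5.69 to 7.50 CPM, while T35 was at 0 in wild type and at 2.01 to 8.10 CPM in P23H. In the gene of T8 a pair of other transcripts had the same estimate as each other in each wild-type library, 49.1 and 52.5 CPM, so reads were divided evenly between them and the levels of single transcripts of that gene are uncertain.

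**Figure D3:**
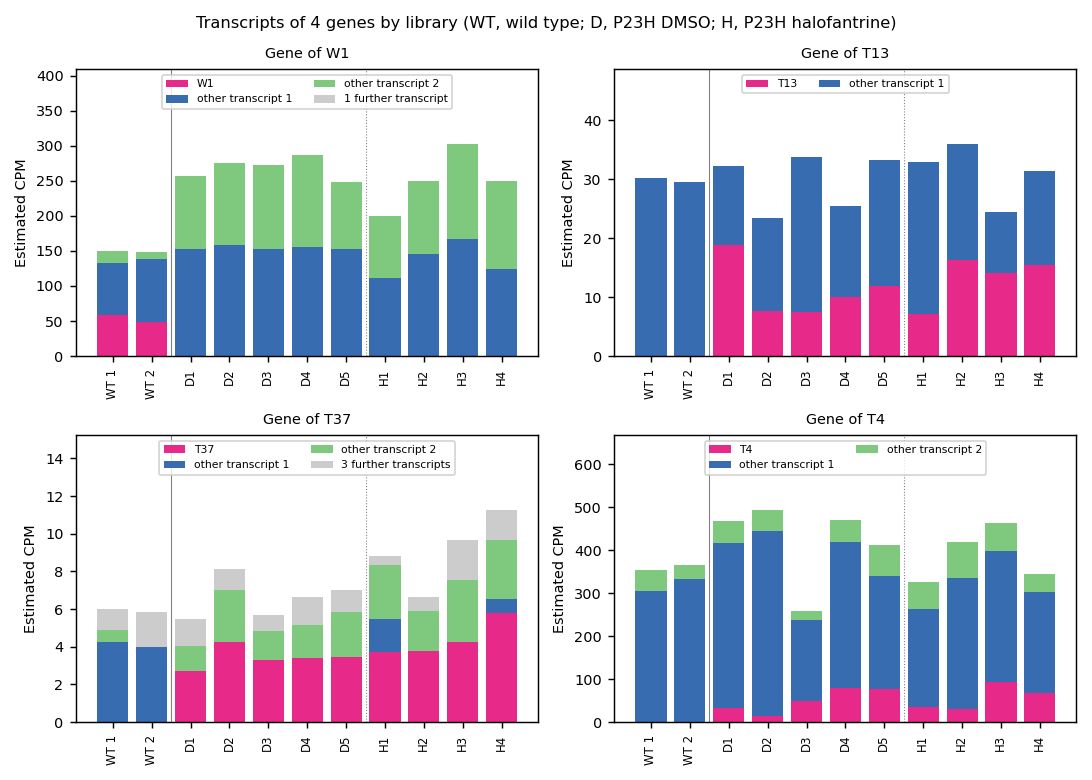
CPM of each transcript of the genes of W1, T13, T37 and T4, stacked by library on linear axes from 0, with the switched transcript at the bottom. W1 is at 57.9 and 48.4 CPM in the 2 wild-type libraries and at most 0.0149 CPM in P23H, while T13 and T37 appear in all 9 P23H libraries and another form of the same gene is lower there.

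The gene of W1 did not fall with its transcript. Its total was 150 and 148 CPM in wild type and 199 to 303 CPM in P23H, a ratio of means of 1.75. Another transcript of this gene had 16.8 and 9.997 CPM in wild type and 87.3 to 136 CPM in P23H. A further one had 74.9 and 89.8 CPM in wild type and 112 to 167 CPM in P23H, so that both were higher in all 9 P23H libraries than in either wild-type library. The gene of W2 had 33.2 and 29.1 CPM in wild type and 19.9 to 42.8 CPM in P23H, a ratio of 1.04, and its other forms overlapped between genotypes.

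Members lay close to the limits of the rule in several cases. The lowest P23H value was 2.01 CPM for T35, 2.07 for T32 and 2.09 for T38, and the nearest transcripts outside had 1.96, 1.96 and 1.79 CPM. The highest wild-type value was 0.193 CPM for T6, 0.191 for T9 and 0.189 for T11, against 0.204, 0.216 and 0.223 CPM for the nearest outside. Just outside the WT-only rule, transcripts with 15.8, 4.24 and 2.43 CPM as the lower wild-type value had P23H maxima of 0.230, 0.268 and 0.407 CPM. The other near misses were silent enough in P23H, but their lower wild-type values were 1.81, 1.69 and 1.63 CPM.

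Within a fit over all 43372 transcripts that passed the filter on low counts (edgeR quasi-likelihood test, Benjamini-Hochberg), 30 of the 38 P23H-only transcripts were called between DMSO and wild type, where 1.39% of all transcripts were called higher and 2.90% were called in either direction. The 8 not called were T1, T2, T3, T6, T8, T9, T16 and T27. In the same fit 27 of the 38 were called between halofantrine and wild type, where 0.798% of all were called higher and 1.62% in either direction. The 11 not called were T1, T2, T3, T6, T7, T8, T9, T10, T16, T19 and T23. W1 was called in both comparisons and W2 in neither, where 1.51% and 0.825% of all transcripts were called lower. As the rule used these contrasts and both share the wild-type libraries, nothing is read from these counts beyond the spread of the members not called. Between DMSO and wild type 604 of all transcripts were called higher and 655 lower, which became 862 and 407 without scaling factors and 165 and 666 by limma-voom. Between halofantrine and wild type the split of 346 higher and 358 lower became 497 and 213, and 57 and 315. The median log2 fold change over all transcripts was 0.12 between DMSO and wild type with TMM factors, 0.01 with upper quartile factors and 0.20 without factors.

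The comparison of halofantrine with DMSO took no part in the choice of P23H-only transcripts other than through the floor of 2 CPM in all 9 libraries. It addresses whether the level differed with the drug among transcripts that stayed at 2 CPM or more in every P23H library. A transcript that fell under 2 CPM in any halofantrine library could not have been chosen. The 38 therefore cannot address a return to silence with the drug. All 38 were tested, and none had an adjusted p under 0.05, where 0.00231% of all transcripts did, which is 1 of 43372. The lowest adjusted p among the 38 was 0.952 by the edgeR quasi-likelihood test. Neither W1 nor W2 was called, and both were at or near 0 in all 9 P23H libraries. The WT-only rule held all 9 P23H values under 0.2 CPM, the halofantrine libraries included. A transcript that returned above that limit with halofantrine could not have been chosen, so W1 and W2 cannot address a return with the drug. At an unadjusted p under 0.05 there were 5 of the 38, against 5.01% of all transcripts. DESeq2 and limma-voom called none of the 38 either, with 6 and 3 at an unadjusted p under 0.05, and DESeq2 gave no adjusted p for 6 of them. DMSO and halofantrine values overlapped in all 38, and over all transcripts 1.80% did not overlap.

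Estimates of single transcripts were wide. The log2 fold change of halofantrine over DMSO lay between -3.91 and 1.86 with a median of -0.30, where the median over all transcripts tested was -0.04, and its standard errors ran from 0.207 to 1.78. By sign, 23 of the 38 were below 0 and 15 above. Leaving out DMSO replicate 3 turned this split to 13 below and 25 above with a median of 0.18. Leaving out halofantrine replicate 1 as well gave 14 below and 24 above with a median of 0.11, and 11 of the 38 estimates changed sign between this fit and that of all libraries. In that fit too no member had an adjusted p under 0.05, and 2 had an unadjusted p under 0.05. The negative median over all 9 libraries thus depended on DMSO replicate 3.

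Transcripts of the smallest p were of 2 kinds. T12 (ENSRNOT00000017730.7) had 6.75, 22.8, 22.0, 13 and 17.2 CPM with DMSO and 7.29, 5.51, 7.83 and 11.9 CPM with halofantrine. Most DMSO values were above the halofantrine values, but DMSO replicate 1 was among them. Its log2 fold change was -1.02 (SE 0.398), with an unadjusted p of 0.0305 and an adjusted p of 0.952 (edgeR). T15 (ENSRNOT00000013908.7) had 16.1, 5.51, 4.74, 8.65 and 8.59 CPM with DMSO and 12.4, 19.2, 11.6 and 19.4 CPM with halofantrine, a log2 fold change of 0.87 (SE 0.382) with an unadjusted p of 0.0462 and the same adjusted p by edgeR. Here too the groups overlapped through DMSO replicate 1. Both genes had totals within 1.5-fold of wild type. The 3 others moved with a single library each.

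T3 (ENSRNOT00000077517.3) had 47.3, 5.67, 332, 34.7 and 20.6 CPM with DMSO and 10.7, 16.6, 22.3 and 14.6 CPM with halofantrine. Its log2 fold change was -2.52 (SE 1.04), with an unadjusted p of 0.0356 and an adjusted p of 0.952 by edgeR, and was -0.70 without DMSO replicate 3. T6 had 4.98, 2.71, 231, 5.89 and 4.30 CPM with DMSO and 4.19 to 5.50 CPM with halofantrine, and its estimate of -3.41 (SE 1.47), with an unadjusted p of 0.0425 and an adjusted p of 0.952 by edgeR, became 0.20 without that library. T27 (ENSRNOT00000021135.8) had 2.29 to 3.89 CPM with DMSO and 28.8, 2.47, 4.44 and 2.58 CPM with halofantrine, and its estimate of 1.52 (SE 0.666), with an unadjusted p of 0.0458 and an adjusted p of 0.952 by edgeR, was 0.02 without halofantrine replicate 1. T1 had an estimate of -3.91 (SE 1.78; edgeR adjusted p = 0.952), which was 1.07 without DMSO replicate 3, and T2 one of 0.66 (SE 0.990; edgeR adjusted p = 1.00).

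**Figure D4:**
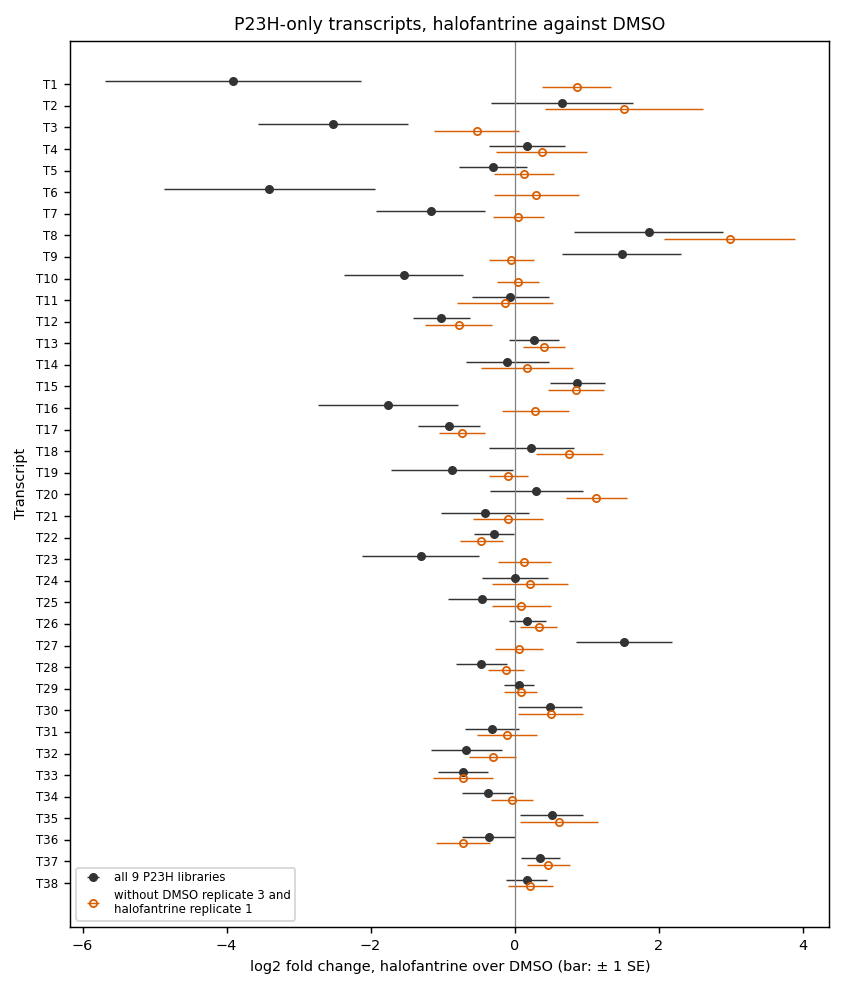
Log2 fold change of halofantrine over DMSO for the 38 P23H-only transcripts, with bars of 1 standard error on each side, from all 9 P23H libraries (filled) and without DMSO replicate 3 and halofantrine replicate 1 (open). No transcript was called in either fit; the median moved from -0.30 to 0.11, and T1, T3, T6 and T27 moved most of the way to 0 or past it.

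At the gene level, 32 member genes were tested among 12031 genes. None was called between halofantrine and DMSO, where 0.00831% of all genes were, and the lowest adjusted p was 0.434 by the edgeR quasi-likelihood test. An unadjusted p under 0.05 was reached by 6 of the 32, where 10.9% of all genes reached it. The median log2 fold change of the 32 was -0.21, with 24 below 0, and the median over all genes was -0.03. Without DMSO replicate 3 the median of the 32 was 0.04, with 14 below 0, and without halofantrine replicate 1 as well it was 0.02, with 15 below 0.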

How the data were processed

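RNA from whole retina was sequenced as strand-specific libraries of polyadenylated RNA. The authors quantified reads against the rat Ensembl transcriptome with kallisto, and tximport gave sums per gene. The deposited transcript and gene tables hold estimated counts, unscaled for depth, with 43.3% of transcript values not whole. The gene table was already restricted by an unstated filter. A normalized gene table and the authors' table of fold changes and p-values were not used. Groups were taken from the sample labels, and replicates were numbered in order of accession. Nothing but the sample names says that libraries are separate animals, and p-values measure the spread between libraries.

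Members were chosen by the rule in the text with each column scaled to its sum. Members and lists were chosen with earlier results of these data known. Gene assignment used equal sums over 11 libraries, which matched 12034 of 12037 genes. Counts were rounded, filtered by filterByExpr and fitted over all 3 groups with edgeR 4.0.16 (quasi-likelihood, TMM factors, R 4.3.3), with Benjamini-Hochberg adjustment over all transcripts or genes and a threshold of 0.05. Scripts were tested on simulated data. Alternatives were DESeq2 1.42.0, limma-voom (limma 3.58.1), other scalings and filters, other limits of the rule, and libraries left out. Named members were the 15 of highest mean per direction, the 4 of smallest p for halofantrine against DMSO, those sharing a gene, and the 3 nearest each limit. T18 to T38 are named beyond this to account for every member, after their values were seen. Lists by gene symbol, positions and cell type markers were not analysed here, since 0 entries of the gene table used for names carry an Ensembl identifier.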

Additional observations from a re-analysis of the deposited data

Results flagged for a closer look

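In groups of 4 or 5 libraries, a library was singled out where its gap to the nearest other value was large for the range of the group (Dixon's criterion). Chance alone flags about 1 in 20 groups where values are normally distributed. Here CPM was taken without logarithms and the groups share libraries, so the number flagged cannot be set against that rate. The P23H-only transcripts gave 76 groups, 38 in DMSO and 38 in halofantrine, and 17 were flagged, each for a high value.

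P23H DMSO replicate 3 was the library in 12 of them. Its CPM was 650 for T1, 332 for T3, 231 for T6, 116 for T7, 22.2 for T8, 65.3 for T10, 54.7 for T16, 35.5 for T19, 33.4 for T23, 12.9 for T25, 11.8 for T28 and 11.9 for T32. The groups of T7 and T10 belong to 1 gene. P23H halofantrine replicate 1 was flagged for T9 at 84.2 CPM, T19 at 13.3 CPM and T27 at 28.8 CPM. The others were P23H DMSO replicate 2 for T29, at 6.36 CPM, and P23H DMSO replicate 4 for T38, at 3.50 CPM, both among the steadiest members.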

How the results depend on the processing

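With 2 wild-type libraries of 18498356 and 12981130 estimated counts, silence in wild type was limited by depth, and membership depended on both. The rule was met by 38 to 207 P23H-only and 2 to 29 WT-only transcripts when libraries were left out in turn, the highest counts without wild type replicate 1, and by 100 and 22 without wild type replicate 2. A minimum of 1 CPM gave 78 and 8 transcripts, a minimum of 4 CPM gave 11 and 1, and a maximum of 0.4 CPM gave 51 and 4. TMM-scaled CPM gave 34 and 2, and a maximum of 0.1 CPM gave 33 and 2. Without DMSO replicate 3 and halofantrine replicate 1, chosen after the data were seen, there were 42 and 4. The 12 members in genes with level totals became 16 with a limit of 2-fold.

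Between halofantrine and DMSO, 1 transcript and 1 gene were called. DESeq2 called 95 transcripts and 34 genes, and the fit without both libraries 2 and 2. With libraries left out in turn the counts were 0 to 3 transcripts and 0 to 2 genes. Between DMSO and wild type 1259 transcripts were called, 4621 by DESeq2, 831 by limma-voom, 746 without a filter, 3309 without both libraries (a fit added after the data were seen), and 231 to 2107 with libraries left out in turn. Between halofantrine and wild type the count of 704 became 3776, 372, 396, 3529, and 140 to 2165. Without DMSO replicate 3 these counts were 2107 and 2165, without wild type replicate 2 they were 231 and 140, and the cause was not tested.

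Among the named members, T1 turned from -3.91 to 1.07 without DMSO replicate 3 and to 0.86 without both libraries, and T6 from -3.41 to 0.20 and 0.30. With libraries left out in turn they spanned -4.21 to 1.07 and -3.70 to 0.20. T2, T3, T12, T15 and T27 kept their direction in the alternatives run, and no named member passed the threshold in any. No paired analysis was possible because the labels give no replicate numbers shared between groups.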
